A study of Mus musculus with 4 samples.

Results

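The RUNX transcription factors, their shared partner Cbfb and the ETO-family corepressors Cbfa2t2 and Cbfa2t3 were followed in lymphoid-primed multipotent progenitors (LMPPs). Members were all probe sets whose platform gene symbol is exactly Runx1, Runx2, Runx3, Cbfb, Cbfa2t2 or Cbfa2t3. The rule found 16 of 45037 probe sets, for 5 of the 6 genes: 6 for Runx1, 2 for Runx3, 1 for Cbfb, 3 for Cbfa2t2 and 4 for Cbfa2t3. The annotation pairs no probe set with Runx2 alone, and that gene was not analysed here.

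The cells came from the marrow of C57Bl/6 mice aged 6 to 8 weeks, either wild-type or Lyl1-null. They had been sorted as lineage-negative, c-Kit+, Sca-1+ cells with high Flt3. There were 4 expression arrays, 2 per genotype, so every group value has n = 2, and the number of arrays limits the precision. Whether the arrays of 1 genotype stem from separate mice or from pools is not stated, so p-values reflect how far these samples scatter and no more, and that scatter may be technical. No treatment is named, and the comparison is between the genotypes.

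A RUNX protein binds DNA through its Runt domain, and Cbfb, which does not touch DNA itself, strengthens that binding. Together they form core binding factor, which is needed to make the first blood stem cells and later to guide myeloid, megakaryocytic, B and T cell genes. The ETO proteins do not read specific DNA sites on their own. They bring histone deacetylases to factors such as Tal1 and the E proteins, and Cbfa2t3 is known as a component of the Tal1 or Lyl1, Lmo2, Ldb1 and Gata complex in blood progenitors. RUNX1 and the ETO gene RUNX1T1 are fused in a common form of acute myeloid leukaemia, and CBFB is broken in another.

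Lyl1 was read first, as a check of the labels. Its probe set 1419120_at read 12.34 and 12.29 in wild type. Of the arrays labelled Lyl1-null, replicate 1 read 5.14 and replicate 2 read 10.32, and the last value goes against its label. Replicate 2 also differed in sex-linked genes. Xist, the transcript of the inactive X chromosome, read 14.26 there and 5.81 to 6.30 in the remaining 3 arrays. The Y-linked Eif2s3y read 8.44 there and 10.07 to 10.15 in the others. Whether replicate 2 mixes mice or genotypes was not tested, and its values below carry that doubt. It stood apart more widely: comparing it with any of those 3 gave 1100 to 1937 of 22519 probe sets with a 2-fold difference or more, and comparing those 3 with each other gave 81 to 244. Each library labelled Lyl1-null is therefore given separately below, called replicate 1 and replicate 2. All 10 LMPP markers on the array lay above the expression filter, a log2 value of 5.69, and none passed the test. Both arrays labelled Lyl1-null were below both wild-type arrays for 5 of them, beside 24.0% of all tested genes. They were above both for 2, beside 18.7% of all tested genes. Kit read 10.07 and 10.27 in wild type against 9.56 and 8.97, and Cd48 9.13 and 9.28 against 8.35 and 8.00. Of markers of other cells, 8 of 11 for granulocytes and monocytes and 7 of 10 for erythroid cells and megakaryocytes lay above the filter. So did 6 of 11 for mature lymphocytes and 7 of 9 for bone marrow stroma and osteoblasts. Of the last list, Col1a1 read 5.23 and 7.90 in wild type, 5.47 in replicate 1 and 7.22 in replicate 2. The part of these marker differences in the results below was not tested.

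The promoters of the family are shown first, because a RUNX motif pair recurs in the RUNX genes, and because Cbfa2t3 holds a composite motif of the kind its complex is known for. RefSeq windows of build GRCm38.p6, from 250 bases before to 50 after a start site, were matched by symbol for all 5 measured genes, 8 windows in all. Runx1, Runx3 and Cbfa2t3 each have a distal and a proximal window. The RUNX motif ACCACA, searched on both strands, was in 2 of the 8, the distal windows of Runx1 and Runx3, and in 16.8% of all 32851 windows. In both it occurred as a pair with 2 bases between. That pair, ACCACANNACCACA, was in 7 of all 32851 windows (0.0213%), and 3 of the 7 genes were Runx1, Runx2 and Runx3. Only this spacing, the one in the RUNX windows, was counted, so the share is a description only. The pair begins at position 29 from the Runx1 start and at −134 from the Runx3 start. Capitals mark the RUNX motif.
Runx1 distal, chr16:92826028-92826051, minus strand: aaacaACCACAgaACCACAagttg
Runx3 distal, chr4:135120506-135120529, plus strand: cctcaACCACAgaACCACAaggcc

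Cbfa2t3 carried the sites that bHLH and GATA factors are known to read. E-boxes, CANNTG, were in 5 of the 8 member windows and in 72.3% of all windows, so a single one says little. The distal Runx1 window held 3 and the distal Cbfa2t3 window 4, among the latter CAGCTG at 2 places (as in 1.90% of windows) and CAGATG once (17.2% of windows hold it). It also held a GATA motif, TGATAA, on the opposite strand, the 1 member window with AGATAA or TGATAA (18.6% of all). The downstream CAGCTG and the GATA motif form the spacing CTGNNNNNNNNNGATA, with 9 bases between CTG and GATA, which 2.51% of all windows held and no other member window. Such a pair is the composite site described for Tal1 and Gata factors, and the match overlaps both motifs. The 250 bases before the start are printed with the CAGCTG and CAGATG boxes and the GATA motif, read here from its other strand, in capitals. The remaining E-box, at −34, is in lower case. A match in these letters is not a measured site.
Cbfa2t3 distal, chr8:122699110-122699359, minus strand: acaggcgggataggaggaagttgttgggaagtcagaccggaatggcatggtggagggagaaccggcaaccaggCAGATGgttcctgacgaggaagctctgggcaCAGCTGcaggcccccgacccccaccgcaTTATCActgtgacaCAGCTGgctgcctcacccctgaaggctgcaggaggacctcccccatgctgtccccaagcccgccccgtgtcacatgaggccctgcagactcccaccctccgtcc

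**Figure D1:**
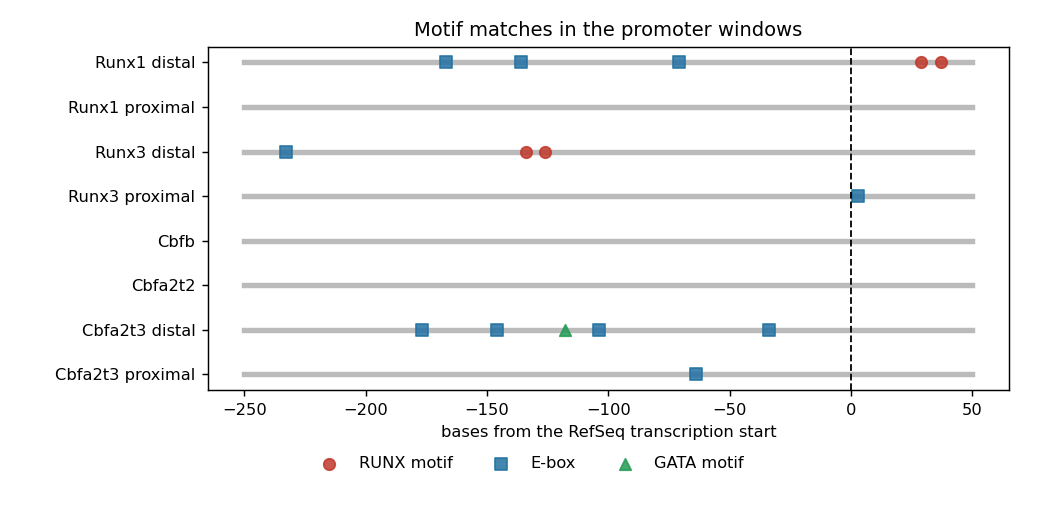
Matches to the RUNX motif (circles), the E-box (squares) and the GATA motif (triangles) in the 8 RefSeq promoter windows, placed by bases from the transcription start (dashed line). RUNX pairs lie in the distal Runx1 and Runx3 windows, and the 4 E-boxes and the GATA motif lie in the distal Cbfa2t3 window.

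The proximal windows were richer in G and C than the distal ones. The Runx1 windows had 45.0% (distal) and 69.0% (proximal), those of Runx3 63.7% and 77.3%, and those of Cbfa2t3 63.7% and 81.7%. Cbfb had 69.7% and Cbfa2t2 79.0%, against a median of 52.7% over all windows. Distal Runx1 was the 1 member window below that median.

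No member gene changed with the Lyl1-null label by the test used. Probe sets with a mean of at least 5.69 over the 4 libraries, the midpoint of the table, were tested in limma with Benjamini-Hochberg adjustment over 22519 probe sets at 0.05. Of the 16 member probe sets 14 entered, and 0 passed, with adjusted p-values from 0.611 to 0.869. Of all tested probe sets 0.00888% passed, namely Ctse, encoding cathepsin E (−4.02, SE 0.19), and Lrmda (3.83, SE 0.21). At an unadjusted p under 0.05 there was 1 member probe set, beside 7.39% of all tested. Log2 differences (Lyl1-null less wild type) ran from −0.56 to 0.47, with 7 above and 7 below 0 and a median of 0.00, where the median of all tested was −0.07. The 95% intervals of the differences lay between −1.23 and 1.36. In simulations of this design with 22519 probe sets the test recovered 3.20% of 2-fold and 78.8% of 4-fold changes, so a 2-fold change would usually have been missed.

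Replicate 1, whose Lyl1 signal was below the filter, lay between the wild-type libraries for 9 of the 14 probe sets, above both for 3 and below both for 2. Over all tested probe sets, 67.3% lay outside the wild-type pair in that library. Its differences from the wild-type mean ran from −0.59 to 0.31, and 1 reached 0.5 in size, beside 5.36% of all tested. Replicate 2 lay between the wild-type libraries for 2, above both for 5 and below both for 7, beside 84.9% outside over all tested. Its differences ran from −0.89 to 0.99 and 4 reached 0.5, beside 31.0% of all tested. Both libraries lay on the same side of both wild-type libraries for 3 of the 14, 1 higher (17.4% of all tested) and 2 lower (26.4% of all tested). The signs of replicate 1 and replicate 2 were opposite for 7 of the 14.

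**Figure D2:**
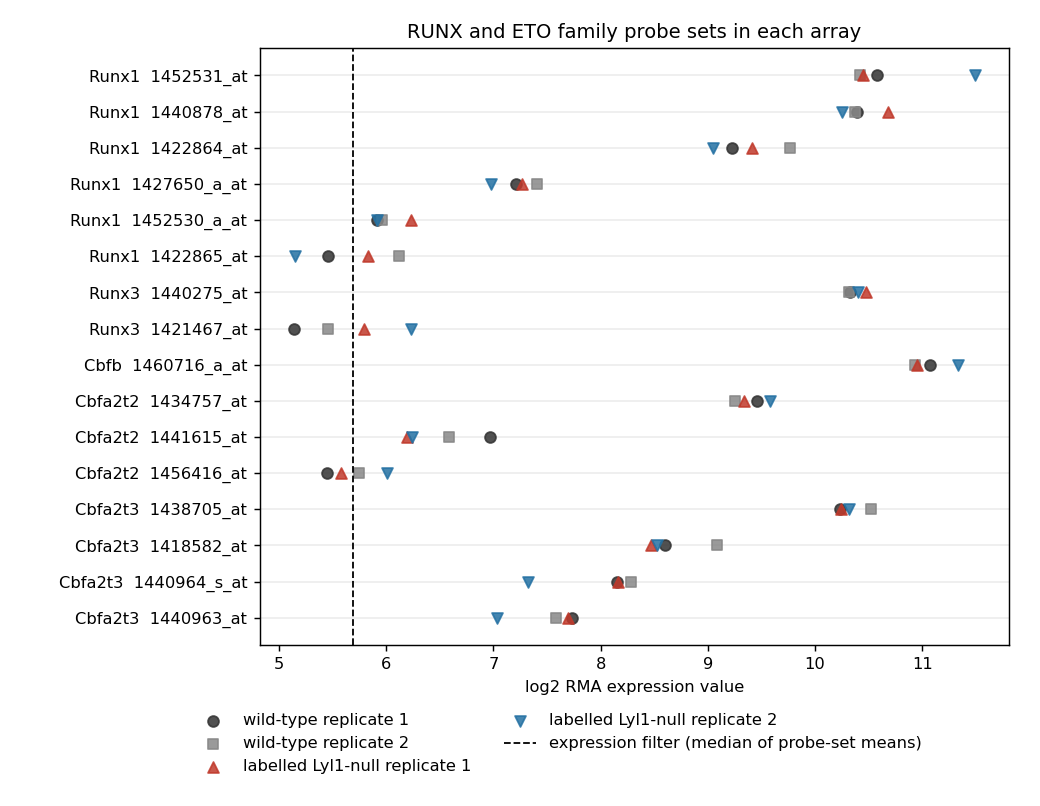
Log2 RMA expression value (x axis) of each of the 16 member probe sets in the 4 arrays, with the expression filter of 5.69 as a dashed line. Replicate 2 (downward triangles) is the outermost library for Runx1 1452531_at, at 11.49, and for Cbfa2t3 1440964_s_at, at 7.32.

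Runx1, the core factor of definitive blood formation, gave different answers by probe set. Probe set 1452531_at read 10.58 and 10.42 in wild type, 10.45 in replicate 1 and 11.49 in replicate 2. Only replicate 2 was high, and replicate 1 lay between the wild-type libraries. The group difference was 0.47 (SE 0.36, 95% interval −0.42 to 1.36, adjusted p = 0.640 in limma). Split by library it was −0.05 in replicate 1 and 0.99 in replicate 2. Without replicate 1 the difference of 0.99 passed (adjusted p = 0.0356), in a fit where 1.75% of all tested passed upward and replicate 2 was assumed to vary like wild type.

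The other Runx1 probe sets did not share that rise. Probe set 1452530_a_at, designed from the same sequence record, read 5.91 and 5.96 in wild type, 6.23 in replicate 1 and 5.91 in replicate 2. Probe set 1440878_at read 10.39 and 10.37 in wild type, 10.68 in replicate 1 and 10.25 in replicate 2. In both, replicate 1 was the highest library, by 0.29 and 0.31 over the wild-type mean, and replicate 2 differed from that mean by −0.03 and −0.13. Probe set 1422864_at read 9.23 and 9.77 in wild type, 9.41 in replicate 1 and 9.05 in replicate 2. For 1427650_a_at the values were 7.21 and 7.41, then 7.27 and 6.98. In these, replicate 1 lay between the wild-type libraries and replicate 2 was the lowest of the 4. Probe set 1422865_at, designed from the same record as 1422864_at, was below the filter and not tested, at 5.46 and 6.12 in wild type, 5.83 in replicate 1 and 5.15 in replicate 2. So replicate 2 was 0.99 above the wild-type mean in 1 Runx1 probe set and 0.03 to 0.64 below it in the other 5. Which part of the transcript each probe set reads was not analysed here, and the mean of all Runx1 probe sets differed by −0.01 (adjusted p = 0.988).

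The genes whose 4 values most resembled Runx1 1452531_at were taken by the smallest root-mean-square difference of mean-centred values. They were Muc13, a membrane mucin (0.024), the orphan receptor gene Gpr146 (0.025), Desi2 (0.031), the hypoxia-inducible factor Epas1 (0.033) and Zadh2 (0.052). Muc13, for example, read 10.80, 10.70, 10.68 and 11.75 in wild-type replicates 1 and 2 and Lyl1-null replicates 1 and 2. All 5 were highest in replicate 2, as the choice by likeness required. Likeness over 4 libraries is a description only.

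Runx3, the family member that shapes cytotoxic T cells and natural killer cells, was nearly level in its brighter probe set. Probe set 1440275_at read 10.33 and 10.32 in wild type, 10.48 in replicate 1 and 10.40 in replicate 2. Both libraries labelled Lyl1-null were above both wild-type libraries, but by 0.15 and 0.08 over their mean. The difference was 0.11 (SE 0.16, 95% interval −0.29 to 0.51, adjusted p = 0.788 in limma). Its second probe set, 1421467_at, lay below the filter on average and was not tested. It read 5.14 and 5.46 in wild type, 5.79 in replicate 1 and 6.23 in replicate 2, higher by 0.49 and 0.93 and without overlap. The mean of both probe sets differed by 0.41 (SE 0.14, adjusted p = 0.640 in limma), against 0.11 for the brighter one. Mature T and NK cell markers stood beside this. Of 6 tested markers of mature B, T and NK cells, 6 had positive differences (as had 4818 of all 11196 genes) and 0 passed. Their summed log2 level was 44.60 in both wild-type libraries, 46.01 in replicate 1 and 46.73 in replicate 2. Cd4 read 6.51 and 6.37 in wild type against 6.70 and 6.85, and Cd8a 5.72 and 5.75 against 5.90 and 6.47. The other 5 markers on the array, Cd3d and Cd3g among them, lay below the filter in every library. Their part in the Runx3 values was not tested. In such bulk samples, fewer cells of a type and less RNA per cell cannot be told apart.

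Cbfb, the shared partner of the RUNX proteins, had 1 probe set, 1460716_a_at. It read 11.07 and 10.93 in wild type, 10.95 in replicate 1 and 11.33 in replicate 2. Replicate 1 lay between the wild-type libraries and replicate 2 above them, so the groups overlapped. The difference was 0.14 (SE 0.20, 95% interval −0.36 to 0.64, adjusted p = 0.796 in limma), and −0.05 without replicate 2.

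Cbfa2t2, an ETO-family corepressor also known as MTGR1, had the member probe set with the smallest p. Probe set 1441615_at read 6.97 and 6.59 in wild type, 6.19 in replicate 1 and 6.24 in replicate 2. Both were below both wild-type libraries, by 0.59 and 0.54 under their mean, and the wild-type libraries themselves were 0.38 apart. The difference of −0.56 (SE 0.20, 95% interval −1.06 to −0.07) had an unadjusted p of 0.0314 and an adjusted p of 0.611 in limma, and did not pass. Dropping the filter, other variance priors, array weights, a looser threshold and replicate blocks cannot change this difference. Of the settings that can, quantile normalization gave −0.53 and median centring −0.64 (adjusted p = 0.665 and 0.582 in limma). With single libraries left out the difference ranged from −0.76 to −0.37. As the groups did not overlap, its sign could not change there.

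The lower values were not seen in the other Cbfa2t2 probe sets. Probe set 1434757_at read 9.46 and 9.25 in wild type, 9.34 in replicate 1 and 9.58 in replicate 2, a difference of 0.11 (SE 0.19). Probe set 1456416_at read 5.45 and 5.75 in wild type, 5.58 in replicate 1 and 6.01 in replicate 2, a difference of 0.20 (SE 0.22). In both, replicate 1 lay between the wild-type libraries and replicate 2 above them, and without replicate 2 each difference was −0.02. The lower value of 1441615_at is thus seen in 1 of 3 Cbfa2t2 probe sets.

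Cbfa2t3, the ETO protein of the Lyl1 complex, also called ETO2, had negative group differences in all 4 of its probe sets. None passed the threshold, and 59.3% of all tested probe sets also had a difference below 0. The mean of the 4 differed by −0.30 (SE 0.17, adjusted p = 0.640 in limma). Probe set 1438705_at read 10.23 and 10.52 in wild type, 10.24 in replicate 1 and 10.32 in replicate 2, a difference of −0.09 (SE 0.18). Both libraries labelled Lyl1-null lay between the wild-type ones. Probe set 1418582_at read 8.60 and 9.09 in wild type, 8.47 in replicate 1 and 8.53 in replicate 2. These lay below both wild-type libraries, with a difference of −0.34 (SE 0.22, adjusted p = 0.618 in limma), but the wild-type libraries were 0.49 apart, and without wild-type replicate 2 the difference was −0.09.

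The remaining Cbfa2t3 probe sets, designed from 1 sequence record, were low in replicate 2 alone. Probe set 1440964_s_at read 8.15 and 8.28 in wild type, 8.16 in replicate 1 and 7.32 in replicate 2. Probe set 1440963_at read 7.73 and 7.58, then 7.70 and 7.03. Replicate 2 was 0.89 and 0.62 below the wild-type mean, and replicate 1 differed from it by −0.06 and 0.04. Their group differences were −0.48 (SE 0.30) and −0.29 (SE 0.26). Without replicate 1, the first passed (−0.89, adjusted p = 0.0401) and the second did not (−0.62, adjusted p = 0.0736), in a fit where 8.33% of all tested passed downward. Erythroid and megakaryocytic progenitors also express Cbfa2t3. Of 7 tested markers of those lineages, 6 had negative differences (56.9% of all genes) and 0 passed. Their summed log2 level was 59.90 and 55.39 in wild type, 54.43 in replicate 1 and 55.35 in replicate 2. Car2 read 13.01 and 12.74 in wild type against 11.97 and 12.07, and Pf4 8.61 and 8.22 against 7.62 and 7.23, both without overlap. Itga2b went the other way, at 8.70 and 8.73 against 9.18 and 9.02, also without overlap. Gata1, Epor and Klf1 overlapped between the groups, with differences of −0.12, −0.02 and −0.01. The globin gene Hba-a1 was 1 of 3 markers below the filter in every library. Their part in the Cbfa2t3 values was not tested.

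**Figure D3:**
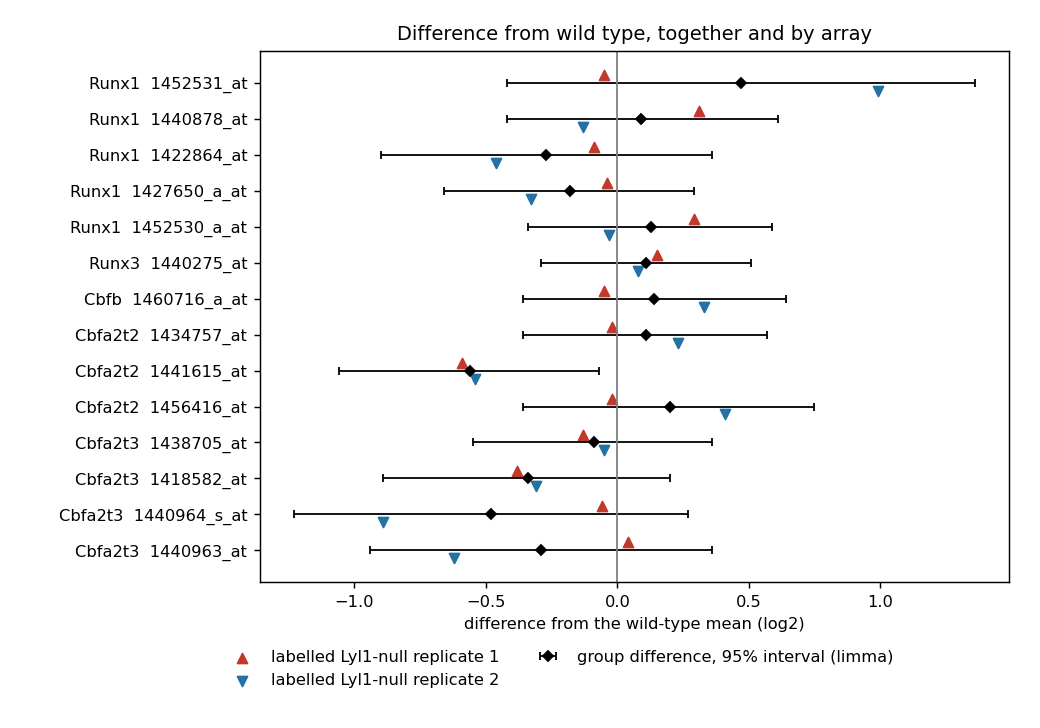
Difference from the wild-type mean (log2, x axis) for the 14 tested member probe sets: the group difference with its 95% limma interval (diamonds), and replicates 1 and 2 labelled Lyl1-null (triangles). All intervals but that of Cbfa2t2 1441615_at, −1.06 to −0.07, include 0, and replicate 2 reaches 0.99 in Runx1 1452531_at.

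The remaining ETO family gene, Runx1t1, lay below the filter. Its 6 probe sets had log2 values between 2.71 and 4.51 over the 4 libraries, and none was tested.

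The proteins that work with these factors were read from each gene's brightest probe set and tested over 11196 genes, of which 0.00893% passed. Of 14 tested genes of the ETO family and its corepressor complexes, 0 passed, 5 had positive and 9 negative differences, and the median was −0.15, beside −0.05 over all genes. The smallest p-values belonged to Rcor1, a scaffold of the CoREST complex, and to the histone demethylase Kdm1a. Rcor1 read 8.72 and 8.87 in wild type, 8.55 in replicate 1 and 7.97 in replicate 2 (−0.54, SE 0.24). Kdm1a read 10.33 and 10.46, then 10.24 and 9.95 (−0.30, SE 0.18). For both genes replicate 2 was the lowest library and replicate 1 the next. Both had an adjusted p of 0.644 in limma.

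RUNX cofactors and the enzymes that modify RUNX proteins had 29 tested genes, with 0 passing, 10 positive and 19 negative and a median of −0.20. The kinases Hipk1 and Hipk2, of which Hipk2 phosphorylates RUNX1 and its coactivator p300, had the smallest p-values. Hipk1 read 9.22 and 9.48 in wild type, 8.94 in replicate 1 and 8.63 in replicate 2 (−0.57, SE 0.20). Hipk2 read 9.91 and 9.96, then 9.62 and 9.25 (−0.50, SE 0.19). In both genes the groups did not overlap, as in 24.0% of all tested genes in that direction, and both had an adjusted p of 0.644.

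The list of DNA-binding partners was drawn up with earlier results of these data known. It also holds the cofactors Lmo2 (−0.11), Ldb1 (−0.91) and Zfpm1 (−0.38), which do not bind DNA themselves. Of 18 tested, 17 had a negative difference, Lyl1 among them, beside 56.9% of all genes. Some were smaller than their SE, such as Ets1 (−0.04, SE 0.17) and Cebpa (−0.07, SE 0.25). None of the 18 passed, and the median was −0.24, with −0.22 in replicate 1 and −0.46 in replicate 2. Over all genes the medians were −0.01 and −0.08 in these libraries. Gata2, needed for stem cell survival, read 10.48 and 10.47 in wild type, 9.54 in replicate 1 and 9.77 in replicate 2 (−0.82, SE 0.17, adjusted p = 0.574). Gfi1, a repressor whose gene is bound by RUNX1, read 10.24 and 9.84, then 9.36 and 9.35 (−0.68, SE 0.20, adjusted p = 0.644). In both genes each library labelled Lyl1-null lay below each wild-type one. Gfi1b, the 1 partner with a positive difference and named after its values were seen, read 7.64 and 7.75, then 8.45 and 7.90.

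Genes known as RUNX targets in blood cells were split, with 14 positive and 16 negative of 30 tested, a median of −0.05 and 0 past the threshold. Hmga2, a chromatin factor known to rise when RUNX1 is lost, read 9.62 and 10.18 in wild type, 7.36 in replicate 1 and 7.20 in replicate 2 (−2.62, SE 0.23, adjusted p = 0.0976). Cdkn1a, the cell cycle inhibitor p21, read 9.51 and 9.28, then 10.96 and 11.80 (1.98, SE 0.30, adjusted p = 0.297). Without replicate 2, 3 genes of the corepressor, cofactor, partner and target lists together passed, Lyl1, Hmga2 and Cdkn1a, beside 0.196% of all genes. Without replicate 1, 19 passed, beside 14.8% of all genes. Of the list of RUNX targets in bone and cartilage, 3 genes were tested and 0 passed. The osteoblast factor Sp7 differed by 0.49 (SE 0.22) and the collagen gene Col1a2 by −0.45 (SE 0.82), the latter at 5.50 and 7.97 in the wild-type libraries themselves.

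Neutrophil genes are given beside the target list. Over 8 tested granulocyte and monocyte markers, the summed log2 level was 63.75 and 61.49 in wild type, 68.92 in replicate 1 and 68.08 in replicate 2, with 5 positive differences, 3 negative and 0 past the threshold. Ngp read 7.05 and 6.55 in wild type against 8.87 and 8.73. The higher sums also came with Camp (1.84, SE 0.32), S100a8 (1.64, SE 0.20) and Ltf (1.47, SE 0.24), secondary granule and calprotectin genes that, like Ngp, had no overlap. Mpo, a granule gene in both the target and the marker list, differed by −1.01 (SE 0.30), also without overlap. Their part in the target values was not tested.

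**Figure D4:**
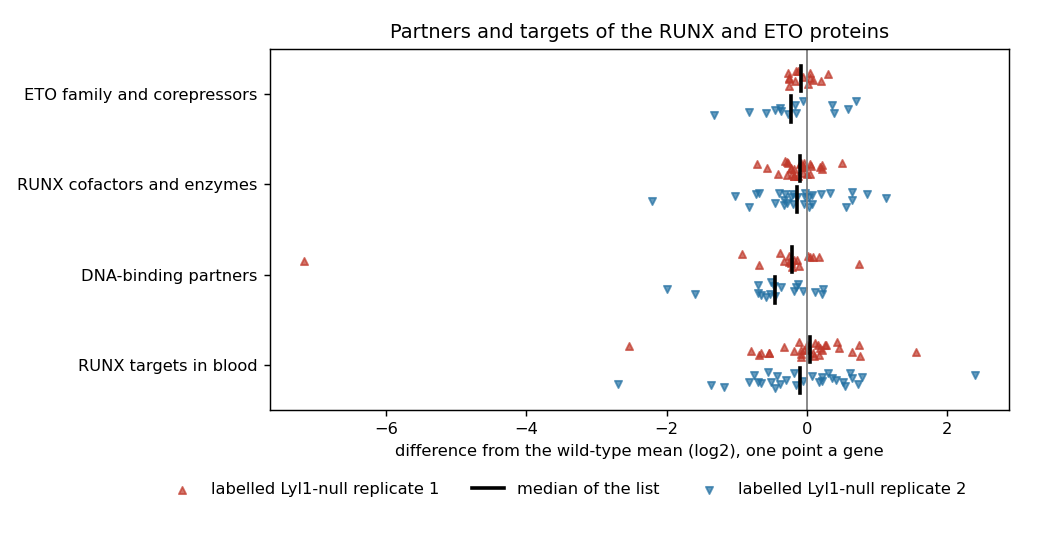
Difference from the wild-type mean (log2, x axis) of each tested gene of 4 lists, 1 point a gene, for replicate 1 (upward triangles) and replicate 2 (downward triangles), with list medians as black bars. The list of DNA-binding partners, its cofactors included, has medians of −0.22 and −0.46, and the far point at −7.17 is Lyl1 in replicate 1.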

How the data were processed

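The data were log2 expression values of 45037 probe sets on 4 arrays, deposited by the authors. Per the submitters' processing notes they were computed by RMA, which corrects background, makes array distributions alike (this can shrink or shift small differences) and summarises probes. Whether other arrays were normalized together with these is not stated. Values were used as deposited. Genes were named from the platform annotation (34945 probe sets with 1 symbol, 932 with several, 9160 not listed); coordinates are from RefSeq promoters of GRCm38.p6 only. Groups came from the sample titles. Tests used limma 3.58.1 in R 4.3.3 (lmFit, eBayes, two-sided, Benjamini-Hochberg at 0.05), by probe set for members and by gene for lists, keeping probe sets whose mean was at or above the 50th percentile of means. Named list genes were those past the threshold, otherwise the 2 with the smallest p. Members and lists were chosen with earlier results of these data known. The fit was tested on simulated data with 200 changed probe sets in 10 runs. Alternatives were filters, normalization, variance priors, array weights, a 0.10 threshold, replicate blocks, mean per gene and each library left out.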

Additional observations from a re-analysis of the deposited data

How the results depend on the processing

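Over 14 member probe sets and their alternatives, 185 of 197 values kept sign and side of the threshold, 10 changed sign and 2 newly passed, in every case by leaving out a library or, for 2 values, by the mean of probe sets. Filters, variance priors, array weights, the 0.10 threshold and replicate blocks left every member difference unchanged, so keeping the sign there was fixed beforehand. Where the groups did not overlap, leaving out a library could not change the sign either. The mean of probe sets gave −0.09 for Cbfa2t2 and −0.01 for Runx1, and larger sizes with the same sign for Runx3 (0.41) and Cbfa2t3 (−0.30). With single libraries left out, differences ranged from −0.02 to 0.23 for Cbfa2t2 1434757_at, −0.02 to 0.41 for 1456416_at, −0.24 to 0.05 for Cbfa2t3 1438705_at, −0.62 to 0.04 for 1440963_at and −0.05 to 0.33 for Cbfb. They ranged from −0.13 to 0.31 for Runx1 1440878_at, −0.03 to 0.29 for 1452530_a_at and −0.05 to 0.99 for 1452531_at. Leave-one-out ranges were 0 to 2 member probe sets past the threshold, 0 to 19 genes of the corepressor, cofactor, partner and target lists together, and −7.17 to −1.99 for Lyl1. Over all probe sets 2 passed in the reported fit, 0 to 2269 with a library left out, 10 with array weights, 8 at a threshold of 0.10, 3 with the replicate block, and 1 with the stricter filter or median centring. Same-numbered libraries deviated in opposite ways (correlation −0.38). With 2 arrays per genotype the crossed value, 0.38, is the same number with its sign turned, and replicate 2 stood apart widely. Whether the numbers mark libraries prepared together therefore cannot be told from it. The replicate block left 0 member probe sets and 0 list genes called and Lyl1 at −4.58; a crossed replicate block, chosen after seeing the data, gave 0 and 0 as well.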
